A study of Saccharomyces cerevisiae with 3 samples.

Results

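The 10 genes *NCL1*, *TRM1*, *TRM2*, *TRM3*, *TRM5*, *TRM7*, *TRM8*, *TRM9*, *TRM10* and *TRM11* encode tRNA methyltransferases of the yeast *Saccharomyces cerevisiae*. They were chosen by name, with earlier results of these data known, and each was read from the array's own annotation by its symbol. Each had 1 probe set, and together they were 10 of the 5449 *S. cerevisiae* genes measured.

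Transfer RNAs carry many methyl groups, which are added after transcription by enzymes that use S-adenosylmethionine, the activated form of methionine, as the methyl donor. Methyl groups in and beside the anticodon loop tune decoding and hold the reading frame, whereas those in the body of the molecule help it to fold and protect it from decay. Supply of the methyl donor therefore depends on methionine, the amino acid whose restriction the study models by a genetic change. Methionine itself was not measured in the data used here. The question put to these genes is whether their transcripts differ between cells with that change and wild-type cells.

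RNA was taken from cultures aged to Day 3 in synthetic complete medium and hybridized to Affymetrix Yeast Genome 2.0 arrays. The study's results place Day 3 at about the time of the diauxic shift, and its methods place it after the shift. The 3 genotypes were rtg3Δ met15Δ, met15Δ and wild-type, with 1 array each. All are haploid and derive from the BY4741/BY4742 background, whose auxotrophic deletions *his3Δ1*, *leu2Δ0* and *ura3Δ0* are thus shared by the wild-type control. *MET15* (annotated on the array as *MET17*) encodes the enzyme that makes homocysteine from sulfide, and its loss models methionine restriction by genetic means. *RTG3* encodes a transcription factor of the retrograde response, the pathway that carries signals from mitochondria to the nucleus. The deletion of *RTG3* was measured only in cells that also lack *MET15*, so its values compare the double mutant with met15Δ, and a strain lacking *RTG3* alone was not analysed here. With 1 array per genotype there is no spread between replicates, no difference below has a replicate check, and none carries a p-value. In RNA from whole cultures, a lower signal from fewer transcribing cells cannot be told apart from less transcript per cell.

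Signals are intensities on the natural scale from robust multi-array averaging (RMA). A probe set is bright or dim partly by its own sequence, so signals are set side by side only within a gene. A gene is called higher or lower where its signals differ at least 2-fold, the rule of the study's methods. Probe sets designed for other organisms gave a guide to the dim end: the brightest of these read 289.3 on the rtg3Δ met15Δ array and 273.3 on both others, and a fold whose smaller signal lies under that limit is given as "at least". The deleted genes matched the labels. *MET17* read 89.95 in rtg3Δ met15Δ cells, 84.95 in met15Δ cells and 2874 in wild-type cells, and *RTG3* read 28.68, against 2215 in met15Δ cells and 2703 in wild-type cells. The median signal of *S. cerevisiae* probe sets was 1457 in rtg3Δ met15Δ, 1552 in met15Δ and 1504 in wild-type cells. The libraries stood apart in mating-type transcripts. The summed signal of 6 a-cell genes was 32410 in rtg3Δ met15Δ, 12810 in met15Δ and 1854 in wild-type cells, where 4 of the 6 lay under the other-species limit. The sum of 4 alpha-cell genes was 5827 in rtg3Δ met15Δ, 1917 in met15Δ and 3759 in wild-type cells, with 1, 2 and 1 under the limit. These genes did not move together. *MF(ALPHA)1* read 2807 in rtg3Δ met15Δ and 344 in wild-type cells, whereas *STE3* read 1146 and 2157. Between those arrays the median log2 ratio of the 4 genes was -0.06, with 2 below 0. The labels give no mating type, and a mating-type difference cannot be told apart from the genotypes in any comparison below. Signal ratios of 3′ over 5′ probe sets, a sign of RNA integrity, were 2.37, 2.24 and 2.99 for *ACT1* in rtg3Δ met15Δ, met15Δ and wild-type cells, and 12.9, 10.4 and 9.27 for *SRB4*. They were 2.6 in rtg3Δ met15Δ, 3.84 in met15Δ and 2.22 in wild-type cells for *SPT15*, which differed most between arrays of the 7 genes with such probe sets. Their part in the results was not tested.

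**Figure D1:**
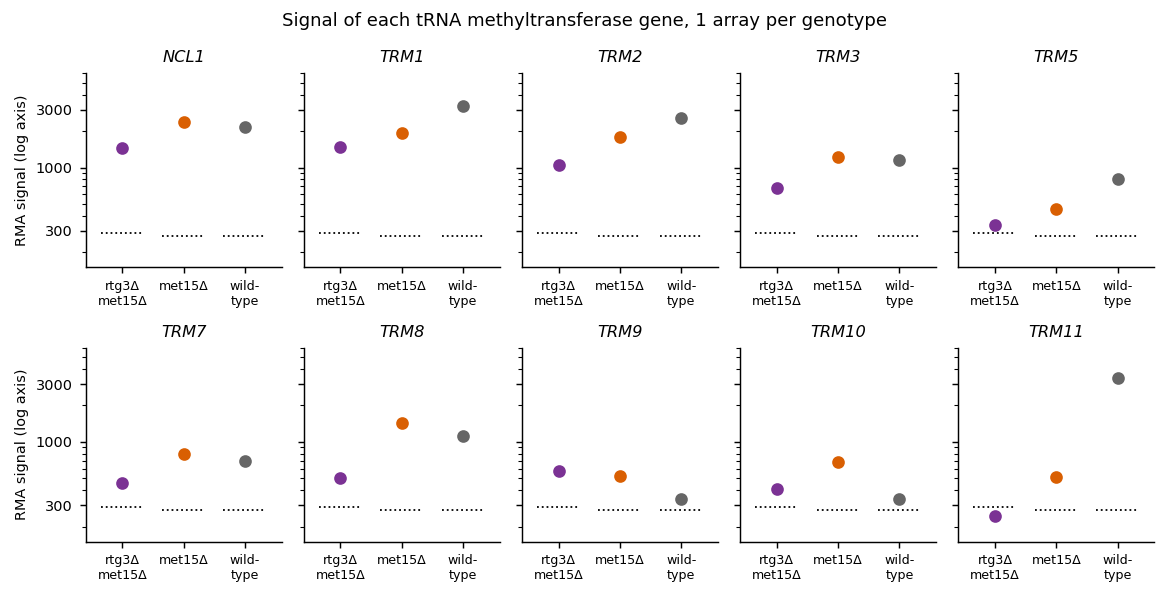
RMA signal (log axis) of each of the 10 tRNA methyltransferase genes in rtg3Δ met15Δ, met15Δ and wild-type cells, 1 point per array, with the brightest other-species probe set of each array as a dotted line. *TRM11* spans 242 to 3366, the widest range of the 10, and its rtg3Δ met15Δ point lies under the dotted line.

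The genes that act on the anticodon loop and stem and beside them did not share a pattern. *NCL1* (locus YBL024W, chromosome II, older name *TRM4*) encodes the enzyme that makes methylcytosine in many tRNAs, including in the anticodon region. Its signal was 1453 in rtg3Δ met15Δ, 2363 in met15Δ and 2158 in wild-type cells. The met15Δ and wild-type signals lay within 1.10-fold of each other, and the double mutant was 1.63-fold under met15Δ (log2 ratio -0.70), short of the 2-fold rule.

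*TRM7* (YBR061C, chromosome II) methylates riboses in the anticodon loop. It read 462 in rtg3Δ met15Δ, 792 in met15Δ and 699 in wild-type cells, and so had the same order as *NCL1*, with the double mutant lowest. *TRM7* works with *TRM732* at one ribose and with *RTT10* at another. *TRM732* read 1183 in rtg3Δ met15Δ, 1837 in met15Δ and 1298 in wild-type cells. *RTT10* read 485 in rtg3Δ met15Δ, 524 in met15Δ and 649 in wild-type cells. Neither partner passed 2-fold in any comparison, and *RTT10* had another order of genotypes than the enzyme.

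*TRM5* (YHR070W, chromosome VIII) methylates the guanosine that follows the anticodon, which keeps the ribosome in frame, and starts the synthesis of wybutosine in phenylalanine tRNA. It read 336 in rtg3Δ met15Δ, 451 in met15Δ and 804 in wild-type cells. The met15Δ signal was 1.78-fold under wild-type, and the double mutant was 2.40-fold under wild-type (log2 ratio -1.26), which passed the rule.

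*TRM9* (YML014W, chromosome XIII, older name *KTI1*) completes the modified uridine at the wobble position that the Elongator complex begins. It read 571 in rtg3Δ met15Δ, 525 in met15Δ and 337 in wild-type cells, and was the only one of the 10 with its highest signal in the double mutant. The met15Δ signal was 1.56-fold and the double mutant signal 1.69-fold over wild-type, both short of 2-fold. The small difference between the mutants (log2 ratio 0.12) turned to -0.07 with arrays scaled to the median of all probe sets and to -0.65 with arrays scaled to the bacterial controls.

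Genes for the body of the tRNA held the largest differences. *TRM11* (YOL124C, chromosome XV) encodes the catalytic subunit of the enzyme that methylates a guanosine in the D stem. Its signal was 242 in rtg3Δ met15Δ, 509 in met15Δ and 3366 in wild-type cells. In met15Δ it was 6.62-fold under wild-type (log2 ratio -2.73), and 0.946% of *S. cerevisiae* probe sets had a lower ratio. The double mutant was at least 11.6-fold under wild-type. Against met15Δ the deposited signals gave 2.10-fold, but with the dim signal held at the other-species limit the difference was at least 1.76-fold, under the rule.

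*TRM8* (YDL201W, chromosome IV) encodes the catalytic subunit for a methylguanosine in the variable loop, a mark that guards some tRNAs from rapid decay. It read 501 in rtg3Δ met15Δ, 1419 in met15Δ and 1125 in wild-type cells. The double mutant was 2.83-fold under met15Δ (log2 ratio -1.50), with 3.64% of probe sets at a lower ratio, and 2.24-fold under wild-type. Its partner *TRM82*, which holds the catalytic subunit in its active form, read 537 in rtg3Δ met15Δ, 946 in met15Δ and 2546 in wild-type cells. The met15Δ signal of *TRM82* was thus 2.69-fold under the wild-type one (log2 ratio -1.43), where *TRM8* had a log2 ratio of 0.34, and the pair differed in which step passed 2-fold.

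*TRM112* encodes the partner that both *TRM9* and *TRM11* products need, and it read 1804 in rtg3Δ met15Δ, 1774 in met15Δ and 1804 in wild-type cells. Its 3 signals lay within 1.02-fold, while *TRM11* spanned 13.9-fold over the same arrays on the deposited signals and *TRM9* spanned 1.69-fold. The deposited *TRM112* value was identical in rtg3Δ met15Δ and wild-type cells. Such ties on at least 2 arrays, found in 5.95% of *S. cerevisiae* probe sets, were not explained by the sources used here.

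*TRM1* (YDR120C, chromosome IV) makes dimethylguanosine at the junction of the D arm and the anticodon stem. It read 1491 in rtg3Δ met15Δ, 1939 in met15Δ and 3196 in wild-type cells, and the double mutant was 2.14-fold under wild-type. *TRM2* (YKR056W, chromosome XI) makes the methyluridine of the T loop. It read 1043 in rtg3Δ met15Δ, 1773 in met15Δ and 2557 in wild-type cells, with the double mutant 2.45-fold under wild-type. Both genes had their middle signal in met15Δ, and neither passed 2-fold at a single step.

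*TRM3* (YDL112W, chromosome IV) methylates a ribose in the D loop. It read 684 in rtg3Δ met15Δ, 1212 in met15Δ and 1145 in wild-type cells, a log2 ratio of -0.82 for the double mutant against met15Δ and no call. *TRM10* (YOL093W, chromosome XV) methylates a guanosine between the acceptor stem and the D arm. It read 407 in rtg3Δ met15Δ, 682 in met15Δ and 340 in wild-type cells. The met15Δ signal was 2.01-fold over wild-type, just inside the rule, and the double mutant was 1.68-fold under met15Δ, with a log2 ratio of 0.26 over wild-type. The sign of that last ratio was not stable: it was -0.23 with arrays scaled to the median of all probe sets and -0.20 after quantile normalization.

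Set beside each other, the 10 genes split by the order of their signals. *TRM1*, *TRM2*, *TRM5* and *TRM11* were lowest in rtg3Δ met15Δ, intermediate in met15Δ and highest in wild-type cells. *NCL1*, *TRM3*, *TRM7* and *TRM8* were also lowest in rtg3Δ met15Δ cells but highest in met15Δ. For *NCL1*, *TRM3* and *TRM7* the order of met15Δ and wild-type rests on log2 ratios of 0.13, 0.08 and 0.18, which became -0.17, -0.22 and -0.12 with arrays scaled to the median of all probe sets. Quantile normalization also turned the ratios of *TRM3* and *TRM7*, to -0.01 and -0.07. Scaling to the bacterial controls turned that of *TRM2* in met15Δ against wild-type from -0.53 to 0.0125. *TRM10* and *TRM9* each had an order of their own. In the pair of log2 ratios over wild-type, *NCL1* and *TRM7* were the closest members, at a distance of 0.0566 log2 units, and *TRM1* and *TRM5* were 0.196 apart.

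In met15Δ against wild-type, 1 of the 10 genes was at least 2-fold higher, *TRM10*, and 1 was at least 2-fold lower, *TRM11*. Over all 5498 *S. cerevisiae* probe sets the shares were 16.8% higher and 11.1% lower, so the count of members is near the background in both directions. The *TRM10* call is lost under 5 alternatives, with log2 ratios of 0.70 and 0.96 after scaling to the median of all or of *S. cerevisiae* probe sets, 0.56 after quantile normalization, and 0.91 and 0.71 with offsets of 50 and 200. At 1.5-fold the counts were 2 higher (*TRM9* and *TRM10*, background 29.0%) and 3 lower (*TRM1*, *TRM5* and *TRM11*, background 20.4%). The median log2 ratio of the members was 0.11, beside 0.07 for all *S. cerevisiae* genes. Log2 ratios of the members ran from -2.73 for *TRM11* to 1.01 for *TRM10*.

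In rtg3Δ met15Δ against met15Δ, none of the 10 was at least 2-fold higher (background 10.4%) and 2 were at least 2-fold lower on the deposited signals, *TRM8* and *TRM11* (background 10.6%). Held at the other-species limit, *TRM11* was at least 1.76-fold lower, which leaves *TRM8* as the only call with both signals above the limit. At 1.5-fold the counts were 0 higher (background 19.9%) and 7 lower (background 24.0%), all but *TRM1*, *TRM5* and *TRM9*. The ratio was below 0 in 9 of the 10 genes, beside 51.5% of all probe sets, and the members' median was -0.75, beside -0.02 for all genes. Apart from *TRM8*, *TRM11* and *TRM9*, the ratios lay between -0.82 and -0.38.

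**Figure D2:**
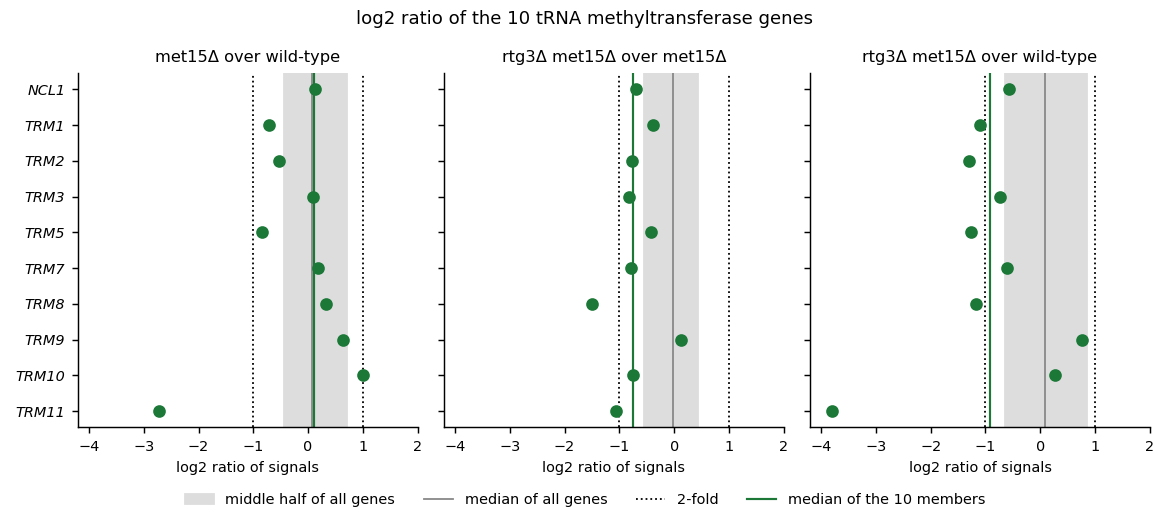
Log2 ratio of signals for each of the 10 genes in met15Δ over wild-type, rtg3Δ met15Δ over met15Δ and rtg3Δ met15Δ over wild-type, with the lower to upper quartile of all *S. cerevisiae* genes in grey and 2-fold as dotted lines. The members' median (green line) is 0.11, -0.75 and -0.92 in the 3 panels, beside 0.07, -0.02 and 0.09 for all genes (grey line).

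In rtg3Δ met15Δ against wild-type, 5 of the 10 genes were at least 2-fold lower, *TRM1*, *TRM2*, *TRM5*, *TRM8* and *TRM11* (background 17.2%), and none was at least 2-fold higher (background 21.1%). At 1.5-fold, 7 were lower (background 26.8%) and 1 was higher, *TRM9* (background 32.6%). The members' median was -0.92, beside 0.09. Some related groups described below were lower still. The 20 cytosolic aminoacyl-tRNA synthetases had a median of -1.51, with 0 higher and 12 lower. The 13 rRNA methyltransferases had -1.43, with 1 higher and 8 lower. Medians of the other groups ran from -0.25 for Elongator and its accessory factors to 0.38 for the methyl donor genes. The differences between the groups were not tested. The comparison of rtg3Δ met15Δ with wild-type shares the double mutant array with the previous one. It shares the wild-type array with the first, so the members' 3 counts are not independent. The study's rule for dependence on *RTG3*, a 2-fold difference between met15Δ and wild-type that is at least 2-fold smaller in the double mutant, took 288 of 5498 probe sets (5.24%) and 0 of the 10 members. *TRM10* came nearest: it passed the first step at 2.01-fold, and the double mutant differed from met15Δ by 1.68-fold.

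The 13 other genes for tRNA methyltransferases, their partner subunits and the wybutosine pathway are given next. In rtg3Δ met15Δ against met15Δ their median log2 ratio was -0.08, beside -0.75 for the members and -0.02 for all genes, with 1 higher and 1 lower. In met15Δ against wild-type it was -0.03, beside 0.11 and 0.07, with 0 higher and 2 lower. The differences between the groups were not tested. *TRM13*, for a ribose methyl in the acceptor stem, read 658 in rtg3Δ met15Δ, 640 in met15Δ and 2212 in wild-type cells. *TRM44*, for a ribose methyl at the start of the variable loop of serine tRNA, was 2.45-fold lower in rtg3Δ met15Δ than in met15Δ, with 435, against 1065 in met15Δ and 1197 in wild-type cells. *TYW3*, a wybutosine enzyme that acts after *TRM5*, was the one called higher: 1705 in rtg3Δ met15Δ, 676 in met15Δ and 771 in wild-type cells. *GCD10* and *GCD14*, the essential methyladenosine pair, differed by at most 1.07-fold between any pair of arrays. The *GCD10* signals were 606 in rtg3Δ met15Δ, 639 in met15Δ and 600 in wild-type cells.

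The 38 genes for other tRNA modifications (pseudouridine, dihydrouridine, deamination, thiolation and others) spread both ways. In rtg3Δ met15Δ against met15Δ, 3 were higher and 8 lower with a median of -0.15, and in met15Δ against wild-type 3 were higher and 3 lower with a median of -0.12. *MOD5*, which isopentenylates an adenosine beside the anticodon, read 1651 in rtg3Δ met15Δ, 961 in met15Δ and 3395 in wild-type cells. *DEG1*, the pseudouridine synthase also named *PUS3*, read 398 in rtg3Δ met15Δ, 311 in met15Δ and 1249 in wild-type cells, and its met15Δ signal was 4.01-fold under wild-type. *QRI7*, of the mitochondrial threonylcarbamoyl pathway, ran the other way at that step, with 420 in rtg3Δ met15Δ, 1149 in met15Δ and 304 in wild-type cells. *PUS2*, another pseudouridine synthase, lay under the other-species limit in both met15Δ (132) and wild-type (146) cells and read 570 in the double mutant.

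Elongator and its accessory factors, which act before *TRM9* at the wobble uridine, had 11 measured genes. In rtg3Δ met15Δ against met15Δ, 1 was higher and 3 lower (median -0.51), where *TRM9* had 0.12, and in met15Δ against wild-type 0 were higher and 3 lower (median -0.55), where *TRM9* had 0.64. *KTI11*, which is also required for diphthamide synthesis, read 9951 in rtg3Δ met15Δ, 2072 in met15Δ and 9770 in wild-type cells. The phosphatase partners *SAP185* and *SAP190* and the subunit *ELP2* were all at least 2-fold lower in the double mutant than in met15Δ. *SAP190* read 1029 in rtg3Δ met15Δ, 3765 in met15Δ and 4226 in wild-type cells, and *SAP185* 419, 1406 and 2829 in the same order. *ELP2* read 583 in rtg3Δ met15Δ, 1364 in met15Δ and 1738 in wild-type cells.

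Of 31 genes for tRNA processing, export and turnover, met15Δ had 6 above and 3 below wild-type by the rule (median 0.23), and 1 was higher and 5 lower in rtg3Δ met15Δ than in met15Δ (median -0.54). Among these calls, *SEN34* was under the other-species limit in wild-type cells (163) and read 352 in met15Δ. *TRL1* was under the limit in rtg3Δ met15Δ (216) and read 440 in met15Δ. Both met15Δ signals lay less than 2-fold over the limit. *MAF1*, the repressor of RNA polymerase III, read 4670 in rtg3Δ met15Δ, 2980 in met15Δ and 649 in wild-type cells. *RNY1*, the vacuolar ribonuclease that cleaves tRNA, read 1168 in rtg3Δ met15Δ, 2179 in met15Δ and 360 in wild-type cells. The nuclear surveillance genes *AIR1* and *MTR4*, whose complex marks faulty tRNA for decay, ran the other way. Other surveillance genes of the list were mixed. *RRP6* had the order of *AIR1* and *MTR4*, with 1011 in rtg3Δ met15Δ, 1695 in met15Δ and 2282 in wild-type cells. *PAP2* did not, and read 537 in rtg3Δ met15Δ, 930 in met15Δ and 747 in wild-type cells. *AIR2* read 981 in rtg3Δ met15Δ, 1020 in met15Δ and 981 in wild-type cells. *AIR1* read 319 in rtg3Δ met15Δ, 800 in met15Δ and 8637 in wild-type cells, with met15Δ 10.8-fold under wild-type, and *MTR4* read 905 in rtg3Δ met15Δ, 1332 in met15Δ and 4854 in wild-type cells.

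The 20 cytosolic aminoacyl-tRNA synthetases, which charge the same tRNAs with amino acids, had the median nearest to that of the members in rtg3Δ met15Δ against met15Δ, -0.84, with 0 higher and 7 lower and 19 of 20 ratios below 0. Unlike the members they were also low at the other step, with a median of -0.58 in met15Δ against wild-type, 0 higher and 4 lower. The difference between the groups was not tested. *CDC60*, for leucine, read 1310 in rtg3Δ met15Δ, 6422 in met15Δ and 13996 in wild-type cells. The synthetase gene *YDR341C*, for arginine, read 3985 in rtg3Δ met15Δ, 15567 in met15Δ and 17013 in wild-type cells. *HTS1*, for histidine, was lower at the first step alone: 2954 in rtg3Δ met15Δ, 2827 in met15Δ and 7680 in wild-type cells. *FRS1*, for phenylalanine, read 2125 in rtg3Δ met15Δ, 3500 in met15Δ and 9305 in wild-type cells.

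**Figure D3:**
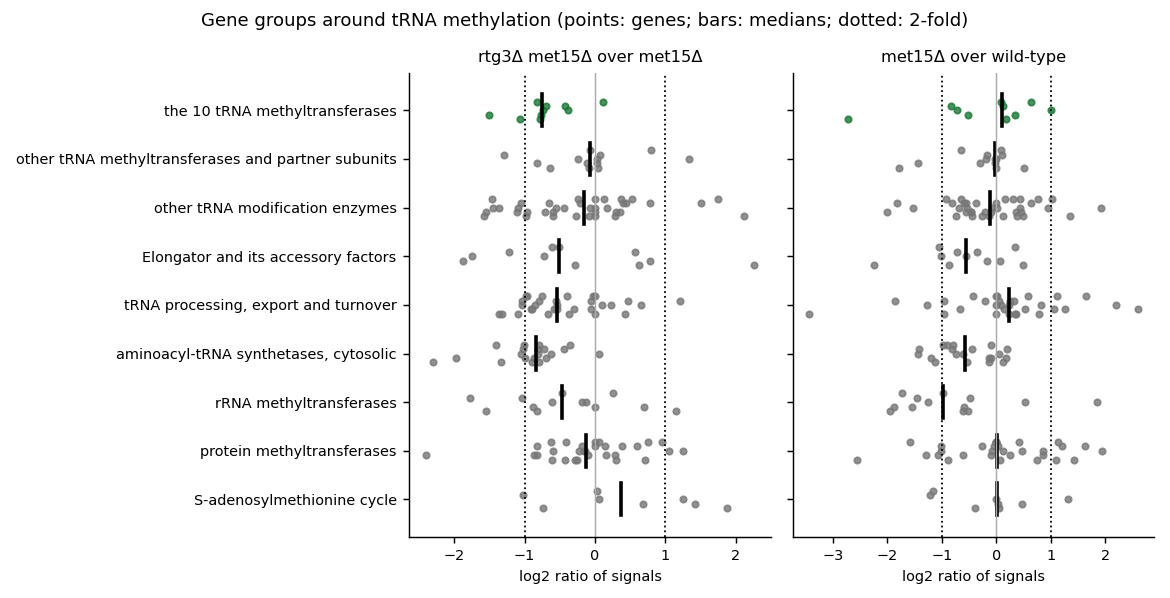
Log2 ratio of signals for every measured gene of 9 groups in rtg3Δ met15Δ over met15Δ (left) and met15Δ over wild-type (right), 1 point per gene, with the group median as a black bar and 2-fold as dotted lines. In the left panel the medians of the 10 tRNA methyltransferases (-0.75) and the synthetases (-0.84) lie lowest, and in the right panel that of the rRNA methyltransferases (-0.97) does.

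Other methyltransferases draw on the same methyl donor. Among 13 rRNA methyltransferases, met15Δ against wild-type gave 1 higher and 6 lower (median -0.97), and rtg3Δ met15Δ against met15Δ gave 1 higher and 3 lower (median -0.47). *BUD23*, for a guanosine of the small subunit rRNA, read 3168 in rtg3Δ met15Δ, 1423 in met15Δ and 5503 in wild-type cells. *RCM1*, for a cytosine of the large subunit rRNA, read 1330 in rtg3Δ met15Δ, 822 in met15Δ and 3017 in wild-type cells. *BMT2*, for an adenosine of the large subunit rRNA, read 224 in rtg3Δ met15Δ, under the other-species limit, 770 in met15Δ and 2111 in wild-type cells. *BMT6*, for a uridine, was under the limit in wild-type cells (134), with 316 in rtg3Δ met15Δ and 482 in met15Δ.

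For met15Δ against wild-type, the deposited signals of 30 protein methyltransferases gave 6 higher and 6 lower (median 0.01). The even counts rest on dim wild-type signals. *RKM2*, *RKM3*, *EFM6*, *DOT1* and *RKM1*, all called higher, were under the other-species limit of 273.3 in wild-type cells. Their met15Δ signals, 287 to 465, lay less than 2-fold over that limit. Among the genes called higher, only *RKM5* had both signals above it (325 in wild-type and 714 in met15Δ cells). All 6 genes called lower had both signals above it. In rtg3Δ met15Δ against met15Δ, 2 were higher and 1 lower (median -0.12). The histone methyltransferase gene *SET5* read 757 in rtg3Δ met15Δ, 1012 in met15Δ and 5945 in wild-type cells. *SET4*, a SET-domain gene, read 178 in rtg3Δ met15Δ, under the limit, 942 in met15Δ and 520 in wild-type cells. *RKM2*, for a ribosomal protein lysine, and *EFM6*, for an elongation factor lysine, were under the limit in wild-type cells (107 and 136). *RKM2* read 352 in rtg3Δ met15Δ and 411 in met15Δ, and *EFM6* read 460 in rtg3Δ met15Δ and 418 in met15Δ.

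The 8 genes that make, recycle or take up the methyl donor were mixed in rtg3Δ met15Δ against met15Δ, with 3 higher and 1 lower. Their median log2 ratio was 0.37, on the other side of 0 from the 10 methyltransferases, a difference that was not tested. *MET6* of this list went the way of the methyltransferases (log2 ratio -0.74), with 9318 in rtg3Δ met15Δ, 15576 in met15Δ and 20472 in wild-type cells. The synthetase paralogues *SAM1* and *SAM2* were opposed, and signals of such close copies may cross-hybridize. *SAM1* read 3881 in rtg3Δ met15Δ, 7859 in met15Δ and 18272 in wild-type cells, whereas *SAM2* read 5766 in rtg3Δ met15Δ, 1575 in met15Δ and 1528 in wild-type cells. *ADO1*, the adenosine kinase that clears a by-product of methylation, read 3254 in rtg3Δ met15Δ, 1221 in met15Δ and 877 in wild-type cells. *MHT1*, which makes methionine from homocysteine and S-methylmethionine, read 2874 in rtg3Δ met15Δ, 1205 in met15Δ and 486 in wild-type cells. In met15Δ against wild-type, 1 of the 8 genes was higher and 2 were lower (median 0.01).

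Genes whose levels over the 3 arrays were most like those of *NCL1* were found by distance in the log2 ratios of both mutants over wild-type. The nearest 5 were *INO80* (0.0175 log2 units), *ARG8* (0.0217), *RAD61* (0.0264), *MCM10* (0.0292) and *UBC11* (0.0376). *INO80* read 2704 in rtg3Δ met15Δ, 4410 in met15Δ and 3988 in wild-type cells, and *ARG8* read 2764 in rtg3Δ met15Δ, 4558 in met15Δ and 4100 in wild-type cells. *RAD61*, *MCM10* and *UBC11* lay under the other-species limit in the double mutant, at 241, 264 and 223. In all, 27 of 5448 other genes lay within 0.1 of *NCL1*, and the ranks of the 3 genes with a signal under the limit rest on that signal.

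Chromosomal neighbours were read for the same arrays, and the 2 examples that follow were chosen after their values were seen. *TRM10* lies next to *RFC4*, which encodes a subunit of the clamp loader of DNA replication, and the genes are transcribed away from each other. *RFC4* read 390 in rtg3Δ met15Δ, 665 in met15Δ and 328 in wild-type cells, beside 407, 682 and 340 for *TRM10* on the same arrays. At 0.0182 log2 units, *RFC4* was the nearest to *TRM10* of all 5448 other genes. *TRM11* lies tail to tail with *TRM13*, and the met15Δ signals of both lay under wild-type, by 6.62-fold and 3.45-fold, but *TRM13* had a log2 ratio of 0.04 between the mutants. On its other side, *HRP1*, an mRNA-binding protein gene, read 2076 in rtg3Δ met15Δ, 4009 in met15Δ and 3202 in wild-type cells. Over the 19 measured neighbours of the 10 genes, met15Δ against wild-type gave 4 higher and 3 lower, and rtg3Δ met15Δ against met15Δ gave 1 higher and 1 lower, with medians of 0.06 and -0.18. Their median was thus nearer to that of all genes (-0.02) than to that of the members (-0.75) in the second comparison, a difference that was not tested.

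**Figure D4:**
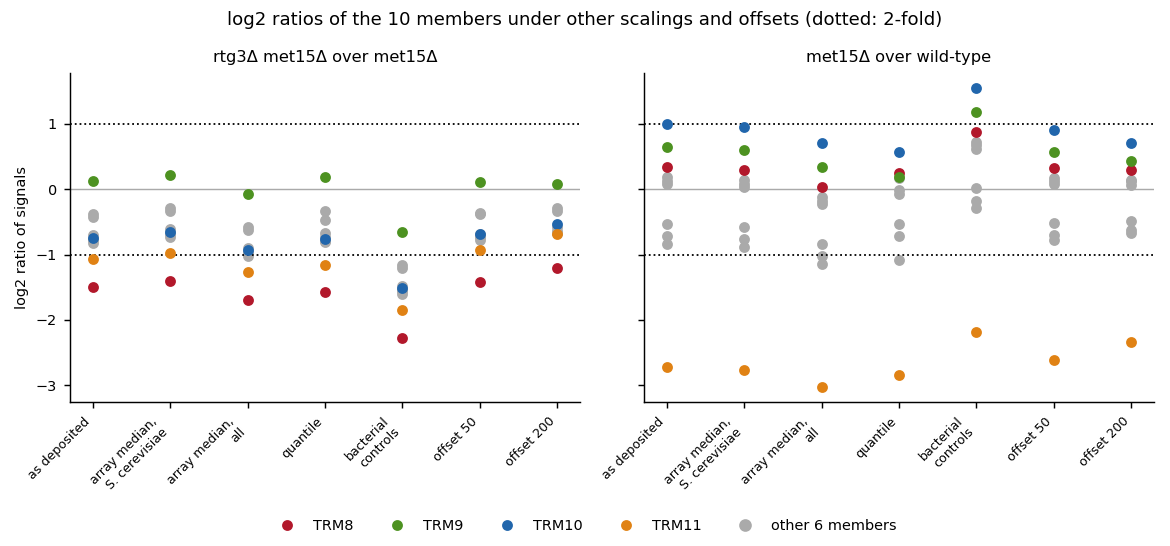
Log2 ratios of the 10 genes under each scaling or offset in rtg3Δ met15Δ over met15Δ (left) and met15Δ over wild-type (right), 1 point per gene, with 2-fold as dotted lines. *TRM8* (red) stays below -1 in the left panel under every setting drawn, while *TRM10* (blue) is at 1.01 in the right panel as deposited and under 1 in all other settings except scaling to the bacterial controls.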

How the data were processed

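The authors background-corrected and transformed the arrays with robust multi-array averaging and deposited natural-scale intensity values, here used without further scaling. Whether their averaging included quantile normalization between arrays is not given in the sources used here. Probe sets were named through the platform annotation (7244 with 1 symbol, 1 with several, 3683 with none), of which 5498 were *S. cerevisiae* and 1746 other species. Older symbols were updated from a table of the R64 assembly, which also gave neighbours. Ratios, counts and medians were computed with Python 3.11.15, pandas 2.3.3 and NumPy 2.4.6, and the counting code was tested on simulated data. Genes named were the 10 members, partner subunits, up to 4 genes per list with the largest absolute log2 ratio in met15Δ against wild-type or rtg3Δ met15Δ against met15Δ, and the 5 genes nearest to *NCL1*. Some other genes, such as *PAP2* and *AIR2*, were named for context. Members and lists were chosen with earlier results of these data known. *IKI3* and *YNL247W* were not analysed here, *TRG1* was dropped as an older name of *PDI1*, and genes under synonyms counted once. Scalings, offsets, a 1.5-fold rule and a filter on low signals were tried. The number of arrays, 1 per genotype, limits the precision.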

Additional observations from a re-analysis of the deposited data

How the results depend on the processing

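None of the genes called at 2-fold changed direction, but only quantile normalization could have turned such a call. Offsets, the 1.5-fold rule and the filter on low signals cannot turn the sign of a ratio. The largest shift by a scaling was -0.77 log2 units, which is short of 2-fold. The filter kept all 10 genes and so changed none of their values. For met15Δ against wild-type, 0 genes were higher under the alternatives that follow, each given with its share of all probe sets. These were scaling to the median of all (10.4%) or of *S. cerevisiae* probe sets (15.5%), quantile normalization (13.7%) and offsets of 50 (14.9%) and 200 (11.0%). With bacterial controls (33.5%) and with the 1.5-fold rule (29.0%), 2 were higher. Genes lower numbered 3 with the median of all probe sets (17.5% of all), 2 with quantile normalization (11.7%) and 3 with the 1.5-fold rule (20.4%). The members' median log2 ratio was -0.20 with the median of all probe sets, -0.039 with quantile normalization and 0.65 with bacterial controls. For rtg3Δ met15Δ against met15Δ, 1 gene (*TRM8*) was lower with the median of *S. cerevisiae* probe sets (8.4% of all). The same held with offsets of 50 (9.44%) and 200 (7.08%). Genes lower numbered 3 with the median of all probe sets (16.1%), 9 with bacterial controls (39.9%) and 7 with the 1.5-fold rule (24.0%). The members' median was -0.95 with the median of all probe sets, -1.53 with bacterial controls and -0.61 with an offset of 200. For rtg3Δ met15Δ against wild-type, genes lower numbered 8 with the median of all probe sets (29.0% of all, beside 17.2% as deposited). With an offset of 200, 3 were lower (14.3% of all), and 1 gene was higher at 1.5-fold (32.6%). The members' median was -1.42 with the median of all probe sets, -1.15 with bacterial controls and -0.76 with an offset of 200. *TRM10* passed the rule for dependence on *RTG3* with bacterial controls and with the 1.5-fold rule, 1 gene in each case. The share of all probe sets that passed under these settings was not computed, so these counts have no background.

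Scaling to the median of all probe sets moved the median log2 ratio of all *S. cerevisiae* genes by -0.30, -0.19 and -0.50 in met15Δ against wild-type, rtg3Δ met15Δ against met15Δ and rtg3Δ met15Δ against wild-type. Scaling to bacterial controls moved it by 0.54, -0.77 and -0.23. Relative to the median of all *S. cerevisiae* genes, the members' median stood at 0.04, -0.73 and -1.01 in these comparisons as deposited, which 1 factor per array cannot change. It stood at -0.047, -0.72 and -0.99 after quantile normalization and at 0.04, -0.59 and -0.82 with an offset of 200. With bacterial controls 39.9% of all probe sets were at least 2-fold lower in rtg3Δ met15Δ than in met15Δ, beside the 9 members. No paired analysis was possible because each genotype has 1 array. Signals near the other-species limit, as for *TRM11* in the double mutant, bound a fold from below only.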

Other observations

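Of 5498 *S. cerevisiae* probe sets, 327 (5.95%) had the same deposited value on at least 2 of the 3 arrays, and 73 had it on all 3. None of the 10 members was among these, but *TRM112* was, with 1804 in both rtg3Δ met15Δ and wild-type cells.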
